A study of Oryctolagus cuniculus with 57 samples.

Results

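The genes described here make peptides from cytosolic proteins and place them on MHC class I molecules. They were 10 symbols chosen by name with earlier results of these data known. Probes of the rabbit array were matched to 8 of them: PSMB8, PSMB9, PSME1, PSME2, TAP1, ERAP1, B2M and RLA-A2. No probe was matched to TAP2, the partner of TAP1 in the peptide transporter, or to NLRC5, a transcription factor of class I genes, and these were not analysed here. The 8 genes stood among 7975 named genes measured, and their 20 probes among 31722 probes measured.

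Nearly every nucleated cell cuts its own proteins in the proteasome, and the interferon-inducible subunits PSMB8 and PSMB9 replace standard catalytic subunits to form the immunoproteasome, while PSME1 and PSME2 form the PA28 activator that docks on its ends. The peptides pass through the TAP transporter into the endoplasmic reticulum, are trimmed there by the aminopeptidase ERAP1 (these roles are best known from human and mouse), and are loaded on a class I heavy chain held by beta-2 microglobulin, B2M. CD8 T cells, which are numerous in the intestinal epithelium, read these complexes at the cell surface.

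RNA was taken from the ileum of 57 young commercial hybrid rabbits, and each was measured on its own array with 1 dye. In the FF group, kits had access in the nest to feces of unrelated does, in the FFab group to feces of unrelated does treated with the antibiotics tetracycline and tiamulin, and in the NF group feces were kept from the nest. Rabbits were studied at day 49, after weaning, and at day 35, the day of weaning. The values below rest on the 56 arrays that the study kept: 9 FF rabbits of day 49 and 10 of day 35, 9 FFab rabbits of day 49 and 10 of day 35, and 9 NF rabbits of day 49 and 9 of day 35. Rabbits of both sexes and of litters that the labels do not name were treated as independent, so p-values measure the spread between rabbits. Feces were provided or removed by nest, so kits of a nest shared their treatment, and the spread between nests was not measured. The comparisons ask how the class I genes changed in the weeks after weaning under each early access to feces, and how the treatments differed at each day.

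A gene's level is the log2 of 1 probe of 60 bases, and the sequences of the probes on which the results turn are shown here because a rabbit class I heavy chain and its near copies can be told apart only by them. For PSMB8, TAP1, PSMB9 and RLA-A2 the probe is the only 1 of its gene. In B2M, capitals mark the bases shared with a neighbouring probe of the gene, in PSME2 those shared by all 5 probes of that stretch (56 of 60 bases), and in PSMB9 the stop codon that ends the probe.
PSMB8: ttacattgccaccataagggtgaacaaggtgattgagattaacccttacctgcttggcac
PSMB9: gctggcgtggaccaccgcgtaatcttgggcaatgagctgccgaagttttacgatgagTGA
TAP1: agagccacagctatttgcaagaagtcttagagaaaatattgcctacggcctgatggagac
PSME2: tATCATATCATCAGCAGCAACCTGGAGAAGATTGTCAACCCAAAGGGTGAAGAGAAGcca
B2M: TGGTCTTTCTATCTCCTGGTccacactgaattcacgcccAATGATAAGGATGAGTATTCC
RLA-A2: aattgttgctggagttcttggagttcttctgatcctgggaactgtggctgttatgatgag

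On the oryCun2 build named in the file headers, the probes of PSMB8 (chr12:23359095-23359308, minus strand), TAP1 (chr12:23363252-23363311, minus strand) and PSMB9 (chr12:23377365-23377424, plus strand) lay close together. The PSMB8 probe spans 214 bases of genome for its 60, so it crosses a splice junction. In the RefSeq annotation of another assembly, mOryCun1.1, used for names only, PSMB9, TAP1, PSMB8 and TAP2 follow each other. The probe of PSME2 lies at chr17:44190833-44190892 (minus strand), that of PSME1 at chr17:44184037-44184227 (plus strand), that of B2M at chr17:27611411-27611470 (minus strand) and that of ERAP1 at chr11:16484224-16484283 (minus strand), again on oryCun2. The files give no position for the RLA-A2 probe. That probe is named only through the paper's lists of genes that changed with age in these data. Its own rise is thus no separate evidence. Heavy-chain genes are near copies of each other, so the level of the RLA-A2 probe may hold RNA of other heavy chains.

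All 20 probes stood well above background on all 56 arrays, and 0 had a saturated spot. Over the arrays, 68.2% to 85.7% of probes stood well above background, and 2 arrays correlated at 0.93 to 0.99. All 6 groups were present on each of the 9 slides, apart from NF of day 35 on the slide of the rabbit that the study left out. On 7 arrays the ileal bile acid genes were low: FABP6, which binds bile acids in ileal cells, lay between 7.88 and 15.5 on the log2 scale, against 17.7 to 19.3 on the other 49. The bile acid transporter SLC10A2 lay between 2.10 and 5.24 on these 7 arrays, against 8.10 or more on the others. They were 2 FFab rabbits of day 49, 3 FFab rabbits of day 35, 1 NF rabbit of day 49 and 1 NF rabbit of day 35, with 0 FF rabbits. All 7 lay in the upper part of their own group for the mean level of the 8 genes, so the medians of comparisons that involve FFab or NF are given with and without them.

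All 8 genes rose between day 35 and day 49 in FF rabbits, where 2.87% of all genes tested rose and 4.36% changed in either direction (Benjamini-Hochberg adjusted p under 0.05 and a log2 change beyond 0.5). The median change of the 8 was 0.99 on the log2 scale, against -0.01 over all genes. RLA-A2 is among the 8 only through the paper's lists of genes that changed with age. Its rise was thus known beforehand and adds no evidence to this count or median. The proteasome and transporter genes of the MHC region changed most, near 2.5-fold, and B2M and the PA28 genes least, near 1.5-fold. In ileal tissue, more cells of a type and more RNA per cell cannot be told apart.

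PSMB8, the immunoproteasome subunit beta5i, had a lowest, median and highest log2 level of 11.70, 12.96 and 13.47 in FF rabbits of day 49, against 10.29, 11.44 and 12.48 in those of day 35. It rose 2.54-fold (log2 change 1.35 ± 0.29 SE, adjusted p = 0.00218), and 7 of 9 rabbits of day 49 lay above all 10 of day 35. PSMB9, the subunit beta1i, had 14.85, 16.21 and 16.67 in FF rabbits of day 49, against 13.67, 14.67 and 16.09 in those of day 35. It rose 2.30-fold (1.2 ± 0.32, adjusted p = 0.0118), with 5 of 9 rabbits of day 49 above all of day 35. In both genes the same FF rabbit was the lowest of day 49 and the same FF rabbit the highest of day 35, and each lay inside the range of the other day.

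PSME1, the alpha subunit of PA28, had 13.08, 13.78 and 13.86 in FF rabbits of day 49, against 12.50, 12.98 and 13.91 in those of day 35. It rose 1.53-fold (0.61 ± 0.16, adjusted p = 0.00898), yet 0 of 9 rabbits of day 49 lay above all of day 35, since that same rabbit of day 35 was the highest of both groups. PSME2, the beta subunit, had 15.40, 16.21 and 16.46 in FF rabbits of day 49, against 15.04, 15.31 and 15.97 in those of day 35. It rose 1.57-fold (0.65 ± 0.14, adjusted p = 0.00209), with 6 of 9 rabbits above all of day 35. The smaller changes of the PA28 genes thus came with a smaller spread: the SD of PSME2 was 0.35 at day 49 and 0.30 at day 35, against 0.55 and 0.64 for PSMB8.

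TAP1, a chain of the peptide transporter, had 9.81, 11.49 and 12.14 in FF rabbits of day 49, against 9.04, 9.78 and 10.997 in those of day 35. It rose 2.53-fold (1.34 ± 0.32, adjusted p = 0.00561), and 7 of 9 rabbits of day 49 lay above all of day 35. ERAP1 had 8.0, 8.76 and 9.33 in FF rabbits of day 49, against 7.14, 7.74 and 8.47 in those of day 35. It rose 1.93-fold (0.95 ± 0.20, adjusted p = 0.0016), with 6 of 9 rabbits above all of day 35 and 9 of 10 rabbits of day 35 below all of day 49, so that only the high rabbit of day 35 reached into the range of day 49.

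RLA-A2, the class I heavy chain, had 17.89, 18.39 and 18.71 in FF rabbits of day 49, against 16.40, 17.42 and 17.95 in those of day 35. It rose 2.05-fold (1.04 ± 0.22, adjusted p = 0.00209), with 7 of 9 rabbits above all of day 35. B2M, the light chain that every class I heavy chain needs, had 17.53, 18.48 and 18.64 in FF rabbits of day 49, against 16.86, 17.84 and 18.21 in those of day 35. It rose 1.5-fold (0.58 ± 0.18, adjusted p = 0.0368), and 6 of 9 rabbits of day 49 lay above all of day 35. The B2M call was lost when any of 9 of the 19 FF rabbits was left out, 3 of day 35 and 6 of day 49, with changes of 0.49 or more and adjusted p up to 0.0946. The calls of the other 7 genes held without any single rabbit.

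**Figure D1:**
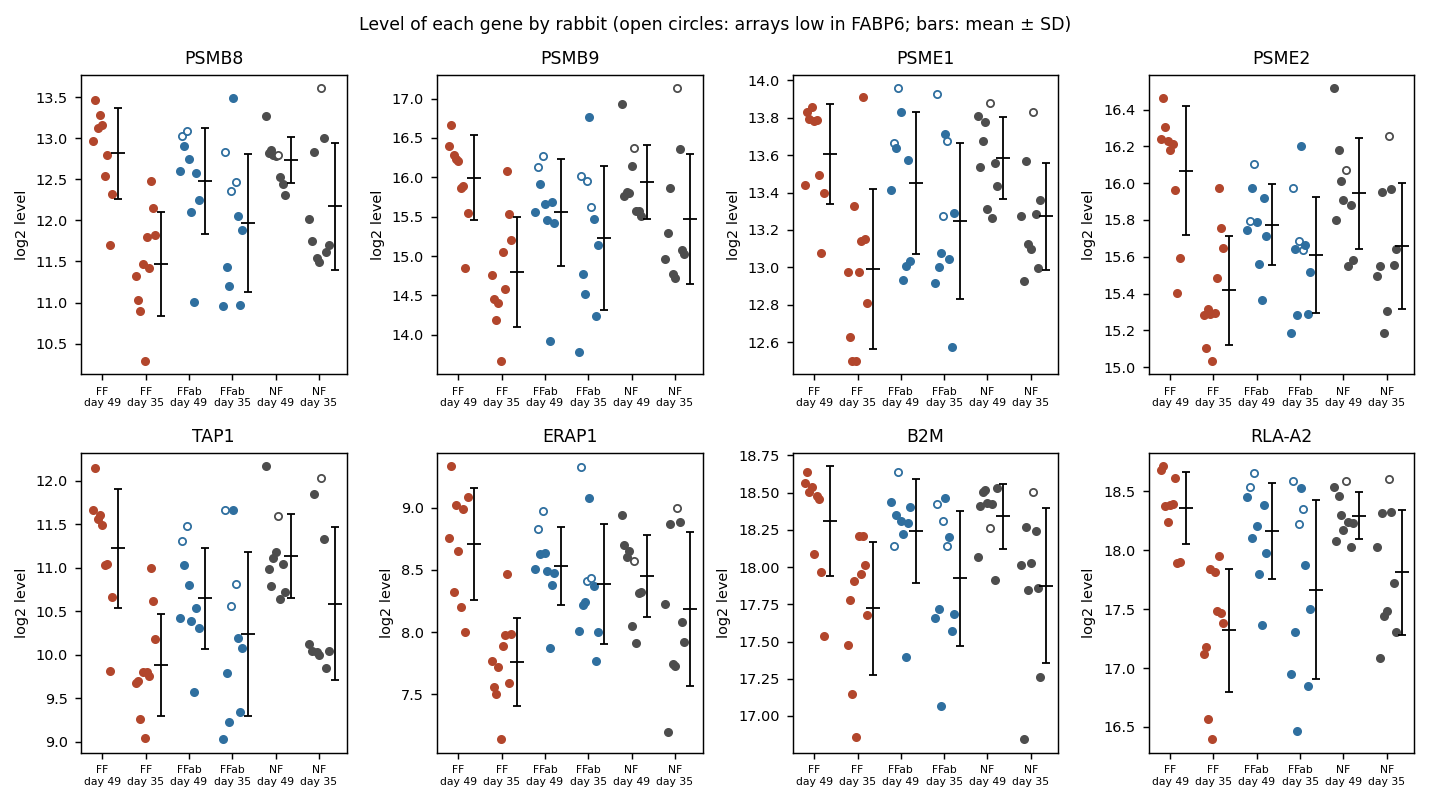
Log2 level of each of the 8 genes (y axis) in every rabbit of the 6 groups of treatment and day (x axis), with the mean ± SD beside the points and open circles for the 7 arrays low in FABP6. In each panel 8 or 9 of the 9 FF rabbits of day 49 stand above the median of FF rabbits of day 35, and the highest NF rabbit of day 35 for PSMB8, at 13.61, is an open circle.

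The change in FF rabbits did not rest on a few slides. Within slides, day 49 was above day 35 on 9 of 9 slides for PSMB8, PSMB9, PSME2, TAP1, ERAP1 and RLA-A2, on 8 for B2M and on 7 for PSME1. The mean difference within slides was 1.33 ± 0.81 for PSMB8 (SD over 9 slides), 1.32 ± 0.84 for TAP1, 0.58 ± 0.49 for PSME1 and 0.55 ± 0.56 for B2M. Where a gene had several probes, they changed in the same direction. A B2M probe at 0.50 did not pass in limma's fit of all 31722 probes (adjusted p = 0.0616). It lay at the 3′ end of the 5 B2M probes, whose changes grew towards the 5′ end of the transcript to 0.72. Probes of PSME2 ranged from 0.62 to 0.65 and those of ERAP1 from 0.86 to 0.95, but 5 of the 6 PSME2 probes are shifted by single bases and both PSME1 probes have the same sequence, so they are repeats rather than separate readings. A PSME1 probe, a PSME2 probe and the RLA-A2 probe were named only through the paper's lists of genes that changed with age.

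In FFab rabbits, 0 of the 8 genes passed between day 35 and day 49, where 0.0752% of all genes did (6 genes). All 8 changes were positive in limma's fit, from 0.15 for ERAP1 to 0.51 for PSMB8, with a median of 0.33, against -0.0031 over all genes, of which 49.2% were positive, and 1 of 8 had an unadjusted p under 0.05, against 8.45% of all genes. PSMB8 had 11.01, 12.60 and 13.09 in FFab rabbits of day 49, against 10.96, 11.97 and 13.49 in those of day 35, and RLA-A2 had 17.37, 18.20 and 18.65 at day 49, against 16.47, 17.69 and 18.59 at day 35. The days overlapped: 0 of 9 rabbits of day 49 lay above all of day 35 for PSMB8 and 1 of 9 for RLA-A2. For both genes 8 of 9 lay above the median of day 35. Of the 10 rabbits of day 35, 2 lay below all of day 49 for PSMB8 and 4 for RLA-A2. RLA-A2 differed by 0.50 ± 0.22 (adjusted p = 0.532) and ERAP1 by 0.15 ± 0.20 (adjusted p = 0.925), with a 95% interval for ERAP1 of -0.25 to 0.54.

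In NF rabbits, 0 of 8 genes passed as well, where 0.0376% of all genes changed in either direction (3 genes). The changes were again all positive, from 0.27 for ERAP1 to 0.56 for PSMB8, with a median of 0.47, against -0.0038 over all genes, of which 49% were positive, and 2 of 8 had an unadjusted p under 0.05 in limma, against 6.08% of all genes. PSMB8 had 12.31, 12.79 and 13.28 in NF rabbits of day 49, against 11.49, 11.74 and 13.61 in those of day 35. Here 9 of 9 rabbits of day 49 lay above the median of day 35, but 3 of 9 rabbits of day 35 lay above the median of day 49. B2M had 17.91, 18.42 and 18.53 in NF rabbits of day 49, against 16.85, 18.01 and 18.51 in those of day 35, and was higher at day 49 on 8 of 8 slides (log2 difference 0.46 ± 0.19, adjusted p = 0.634).

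Over the rabbits of all treatments, 4 of 8 genes rose with age, where 2.42% of all genes rose and 3.5% changed in either direction. These were PSMB8 (0.81 ± 0.17, adjusted p = 0.000779), TAP1 (0.77 ± 0.19, adjusted p = 0.00341), RLA-A2 (0.67 ± 0.13, adjusted p = 0.000267) and PSMB9 (0.67 ± 0.19, adjusted p = 0.01). PSME1, PSME2, ERAP1 and B2M had an adjusted p of 0.00466 or less with changes between 0.37 and 0.46, under the minimum of 0.5, and 6.6% of all genes were higher at an adjusted p under 0.05 with no minimum. This comparison includes the FF rabbits and is no separate evidence.

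**Figure D2:**
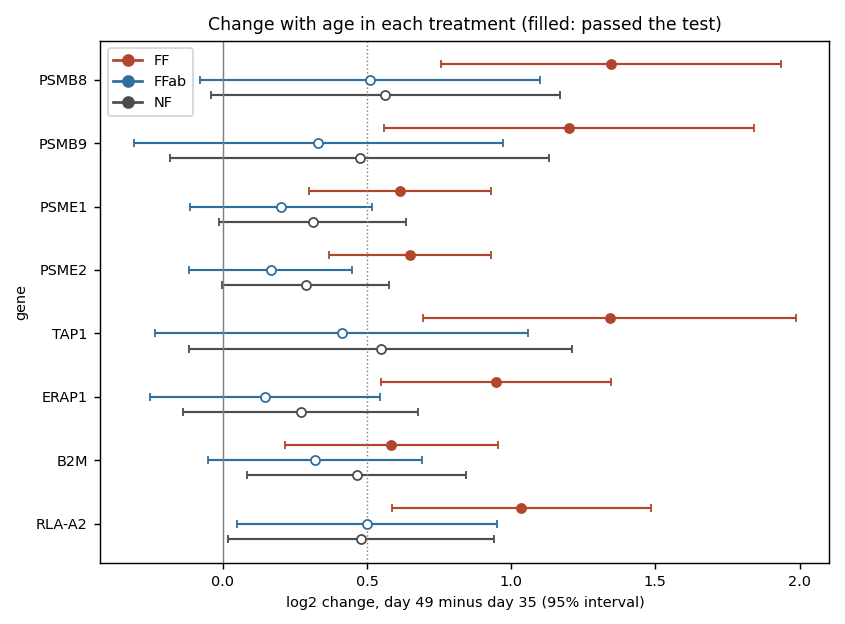
Log2 change from day 35 to day 49 (x axis, with its 95% interval) of each gene (y axis) in FF, FFab and NF rabbits, with filled points for changes that passed the test and a dotted line at the minimum of 0.5. All 8 FF points are filled and lie right of the FFab and NF points of the same gene, while the intervals of the treatments overlap for every gene but ERAP1, where that of FF starts at 0.55 and that of FFab ends at 0.54.

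Whether the age change itself differed between treatments was tested directly, and 0 of 8 genes passed in any of the 3 comparisons, as did 0% of all genes. The age change was larger in FF than in NF rabbits by 0.12 for B2M up to 0.79 for TAP1 (median 0.62), with all 8 positive, against 48.3% of all genes. An unadjusted p under 0.05 was found for 1 of 8, against 4.51% of all genes, namely ERAP1 (0.68 ± 0.28, unadjusted p = 0.0205 in limma, adjusted p = 0.999). The age change was smaller in FFab than in FF rabbits by 0.26 for B2M to 0.93 for TAP1 (median -0.67), with 0 of 8 positive, against 51.4% of all genes, and 4 of 8 genes had an unadjusted p under 0.05, against 2.91% of all genes. These were ERAP1 (-0.80 ± 0.28, unadjusted p = 0.00609 in limma, adjusted p = 0.9997), PSME2 (-0.48 ± 0.20), TAP1 (-0.93 ± 0.46) and PSMB8 (-0.84 ± 0.41). The FFab and NF changes lay close together, with a median difference of -0.12 and 0 of 8 genes at an unadjusted p under 0.05 (0.915% of all genes), but with intervals as wide as -1.06 to 0.79 for TAP1. The 3 comparisons share rabbits, so their values are not separate.

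At day 35, 0 of 8 genes passed between FF and NF rabbits, where 0.0376% of all genes did (3 genes). All 8 were lower in FF, by 0.15 for B2M to 0.71 for TAP1 (median -0.46, against -0.0012 over all genes, of which 49.6% were higher), and 5 of 8 had an unadjusted p under 0.05 in limma, against 7.74% of all genes. PSMB8 had 10.29, 11.44 and 12.48 in FF rabbits, against 11.49, 11.74 and 13.61 in NF rabbits (-0.70 ± 0.29, adjusted p = 0.505), and TAP1 had 9.04, 9.78 and 10.997 in FF, against 9.84, 10.05 and 12.03 in NF (-0.71 ± 0.32, adjusted p = 0.585). The medians of TAP1 thus lay closer together than the means. ERAP1, RLA-A2 and PSMB9 were the others under 0.05.

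Between FFab and FF rabbits of day 35, 0 of 8 passed, where 0.0125% of all genes did (1 gene). All 8 were higher in FFab, by 0.19 for PSME2 to 0.63 for ERAP1 (median 0.35), where 50.1% of all genes were higher. ERAP1 had 7.77, 8.31 and 9.33 in FFab rabbits, against 7.14, 7.74 and 8.47 in FF rabbits, and its difference of 0.63 ± 0.19 (unadjusted p = 0.00204 in limma, adjusted p = 0.37) was the only 1 of the 8 with an unadjusted p under 0.05, against 6.11% of all genes. Between FFab and NF rabbits of day 35, 0 of 8 passed, as did 0% of all genes, and the differences ran from -0.35 for TAP1 to 0.20 for ERAP1, with 0 of 8 at an unadjusted p under 0.05 in limma, against 2.03% of all genes.

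At day 49, 0 of 8 genes passed in any comparison of treatments, as did 0% of all genes. FF and NF rabbits differed by a median of 0.07 and a range from -0.03 for B2M to 0.25 for ERAP1, and 0 of 8 had an unadjusted p under 0.05, against 1.17% of all genes. The interval for PSMB8 ran from -0.52 to 0.69 and that for PSME2 from -0.17 to 0.41. FFab rabbits were lower than FF rabbits in all 8 genes, by 0.06 for B2M to 0.57 for TAP1, where 52.3% of all genes were higher, with PSME2 at -0.29 ± 0.14 (unadjusted p = 0.0473 in limma) the only 1 under 0.05, against 2.33% of all genes. TAP1 had 9.57, 10.53 and 11.48 in FFab rabbits, 9.81, 11.49 and 12.14 in FF rabbits and 10.64, 11.04 and 12.16 in NF rabbits. Between FFab and NF rabbits the differences ran from -0.49 for TAP1 to 0.08 for ERAP1, with 0 of 8 at an unadjusted p under 0.05, against 1.81% of all genes. The rabbits of the 3 treatments overlapped over most of their range.

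**Figure D3:**
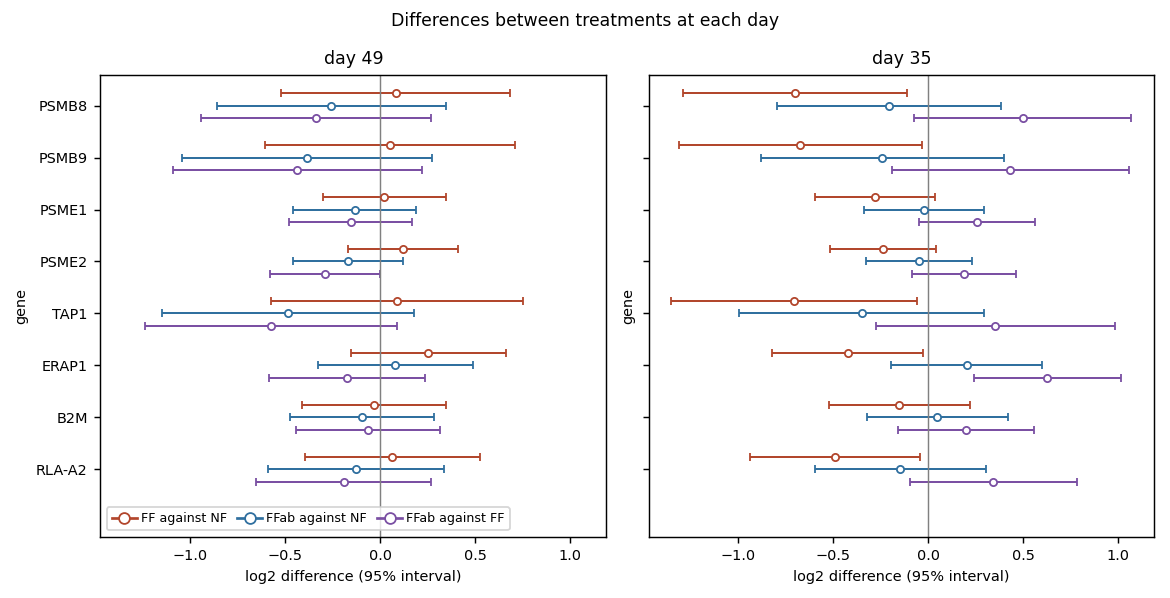
Log2 difference between treatments (x axis, with its 95% interval) for each gene (y axis) at day 49, on the left, and at day 35, on the right. At day 35 the FF against NF points all lie left of 0, from -0.15 to -0.71, and at day 49 they lie between -0.03 and 0.25, and 0 differences passed the test.

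Seen as levels, the means of the 3 groups of day 49 were above those of the 3 groups of day 35 in 8 of 8 genes. FF rabbits of day 35 had the lowest mean in 8 of 8 genes and FF rabbits of day 49 the highest in 7, the exception being B2M, at 18.31 ± 0.37 in FF and 18.34 ± 0.22 in NF rabbits of day 49. In 6 genes the order of the means was the same: FF, NF and FFab of day 49, then NF, FFab and FF of day 35. The steps between neighbours in that order were small. Only 2 of 40 exceeded the smaller of the SDs on either side, NF over FFab at day 49 for TAP1 (0.49) and NF over FF at day 35 for ERAP1 (0.42). The shares of all genes with such orders were not counted. The 8 genes vary together between rabbits, so these counts are not 8 separate readings.

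The arrays low in ileal bile acid genes bear on the treatment differences. Without these 7 arrays, 8 of 8 genes still rose in FF rabbits, which have 0 such arrays, where 268 of all 7975 genes rose. In FFab and NF rabbits 0 of 8 passed, where 5 and 10 of all genes rose and 0 and 5 fell. The median age change became 0.43 in FFab and 0.55 in NF rabbits. In NF, 6 of 8 genes then had an unadjusted p under 0.05 in limma, against 667 of all 7975 genes (485 with all 56 arrays). Over all treatments B2M passed as well, which made 5 genes, where 217 of all 7975 genes rose. At day 35 the median difference between FF and NF rabbits shrank to -0.36. There 0 of 8 genes kept an unadjusted p under 0.05 in limma, against 673 of all 7975 genes. That between FFab and FF rabbits of day 35 fell to a median of 0.11, with ERAP1 at 0.48 ± 0.20. At day 49 the median difference between FFab and FF rabbits widened to -0.33, with TAP1 at -0.79 ± 0.32. The differences between age changes still gave 0 calls, with a median of 0.53 for FF minus NF, -0.61 for FFab minus FF and -0.14 for FFab minus NF. For FFab minus FF, 2 of 8 genes then had an unadjusted p under 0.05 in limma (ERAP1 and PSME2), where 289 of all 7975 genes did. With all 56 arrays, 4 of 8 did. The median difference between FFab and NF rabbits became -0.20 at day 35, against -0.10 with all 56 arrays, and -0.21 at day 49, against -0.15. That between FF and NF rabbits at day 49 became 0.10.

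Other genes of the pathway were counted in FF rabbits by list. Of 5 measured genes listed under peptide loading and trimming, TAPBPL, a chaperone that edits the peptides of class I, rose (0.57 ± 0.15, adjusted p = 0.00962). The general chaperone HSPA5 fell by 0.53 ± 0.17 (adjusted p = 0.0438), and CANX, PDIA3 and LNPEP did not pass, for a list median of 0.01. The remaining catalytic subunit of the immunoproteasome, PSMB10, stood at 0.47 ± 0.24 (adjusted p = 0.243), and with the assembly factor POMP and the activator PSME3 this list gave 0 of 3 calls. Of the standard proteasome, 0 of 12 genes of its 20S core passed (median 0.07, range -0.04 to 0.41) and 0 of 13 of its 19S cap (median 0.01, range -0.20 to 0.27). PSMB5 and PSMB6, the standard subunits whose places PSMB8 and PSMB9 take, stood at 0.03 and 0.03. Among 6 cytosolic peptidases 0 passed, and LAP3 was highest at 0.82 ± 0.33 (adjusted p = 0.119).

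The transcription factors of class I genes are reported only in part, with no count of calls. IRF1, which carries interferon signals, rose in FF rabbits (0.98 ± 0.28, adjusted p = 0.0186), and it is not to be read as the only factor that did. RFX5 (0.01), NFYB (-0.05) and CREB1 (-0.03) did not pass. IRF1 stood at 0.33 ± 0.28 in FFab rabbits and at 0.47 ± 0.28 in NF rabbits, neither of which passed. Class II presentation gave 1 of 5 calls, the lysosomal protease CTSS (0.98 ± 0.22, adjusted p = 0.00306), with CD74, the class II invariant chain, at 0.18 ± 0.19. CD1D and CD1B, other partners of B2M, stood at -0.22 and -0.26 and did not pass. In FFab and NF rabbits 0 of the genes named here passed.

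**Figure D4:**
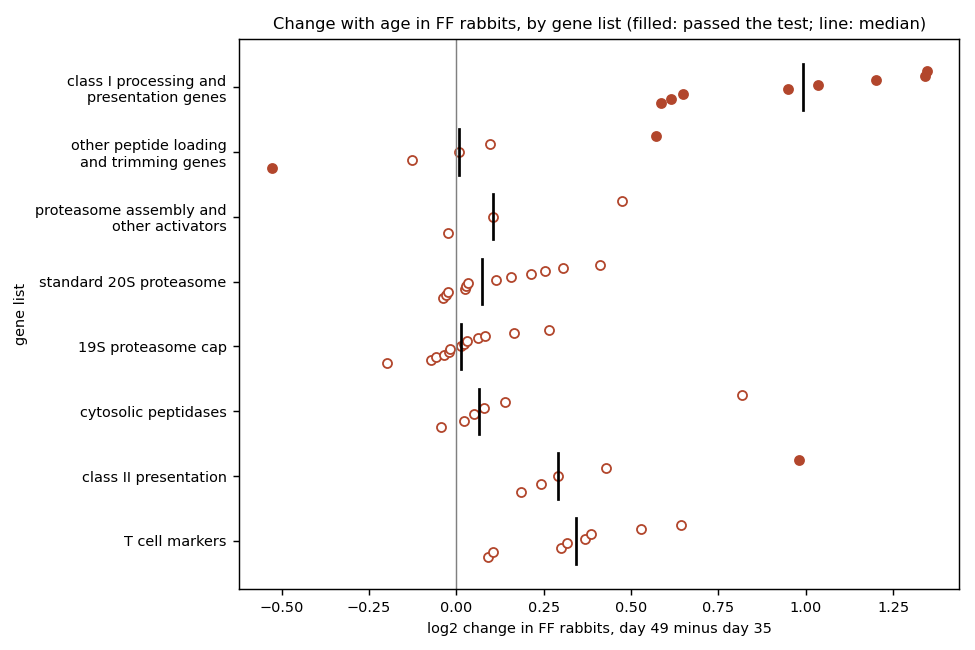
Log2 change from day 35 to day 49 in FF rabbits (x axis) of each measured gene in 8 lists (y axis), with filled points for genes that passed the test and a line at each list's median. The 8 class I genes have a median of 0.99, against 0.07 for the standard 20S proteasome and 0.34 for T cell markers.

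Markers of cells that the tissue holds moved in part with the class I genes in FF rabbits. Of 8 measured T cell markers 0 passed, with a median of 0.34 and CD247 highest at 0.64 ± 0.25 (adjusted p = 0.105). Their mean level ranged from 7.59 to 8.51 in FF rabbits of day 49, against 7.34 to 8.22 in those of day 35. PRF1, the pore protein of cytotoxic lymphocytes, was the only 1 of its list measured and rose (1.03 ± 0.32, adjusted p = 0.0313). TNFRSF17, a plasma cell receptor, was the only call of 3 B and plasma cell markers (0.95 ± 0.28, adjusted p = 0.0261), and 0 of 5 myeloid markers, 0 of 4 stroma and endothelium markers and 0 of 7 ileal epithelium markers passed. Muscle markers rose in 2 of 5 genes (TNNC1 and ACTN2), with a mean level of 10.93 to 11.86 at day 49, against 9.72 to 10.68 at day 35. Both fat tissue markers measured, FABP4 and LPL, rose too, and the red cell gene CA1 fell by 2.49 ± 0.67 (1 of 3). Of the lists, GZMK and ADIPOQ have a probe but were dropped as dim. MS4A1 stood above background on 41 arrays, TNNC1 on 37 and CD4 on 50. The part of these cells in the class I changes was not tested.

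TNNC1 also rose in FFab (1.60 ± 0.28) and NF rabbits (1.55 ± 0.29). Over the 5 muscle markers the median change was 0.77 in FF rabbits, with 5 of 5 positive, against 0.19 in FFab rabbits, with 4 of 5 positive, and -0.16 in NF rabbits, with 2 of 5 positive. In FFab rabbits the T cell markers had a median of 0.25 and in NF rabbits of 0.23, and PRF1 stood at 0.46 ± 0.32 and 0.69 ± 0.32. The 2 fat tissue markers had a median of 1.69 in FF, 1.25 in FFab and 1.69 in NF rabbits. The 3 red cell markers had -0.67, -0.74 and -0.45. In FFab and NF rabbits 0 of these fat and red cell markers passed. The muscle markers had a mean level of 10.42 to 12.11 in FFab rabbits of day 49, against 9.73 to 12.12 in those of day 35, and of 10.18 to 11.50 in NF rabbits of day 49, against 10.02 to 11.62 in those of day 35.

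Rabbits of a group differed in all 8 genes together. After each group's mean was taken out, the 28 pairs of genes correlated over 56 rabbits with Pearson's r between 0.57 and 0.96 (median 0.78) and Spearman's rho between 0.58 and 0.95, and in 26 pairs the two-sided permutation p within groups was 1e-05, the smallest that it can be. The closest pairs were PSMB8 with PSMB9 (0.96), PSMB8 with TAP1 (0.94) and PSMB9 with TAP1 (0.94), whose genes are neighbours, and the loosest was PSME2 with B2M (0.57). Without the 2 rabbits farthest from the median r ranged from 0.53 to 0.95, with slide means taken out from 0.53 to 0.97, and without the 7 arrays low in FABP6 from 0.52 to 0.96 over 49 rabbits. All 28 pairs were above 0 within each group but NF of day 49, where 22 were and B2M with TAP1 stood at -0.55. The values of a rabbit come from the same array, so its RNA quality and makeup of cells are shared by all 8 genes. Pairs of other genes were not correlated, and the p-values are set against no correlation at all. These r are thus not shown to be particular to the 8 genes.

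**Figure D5:**
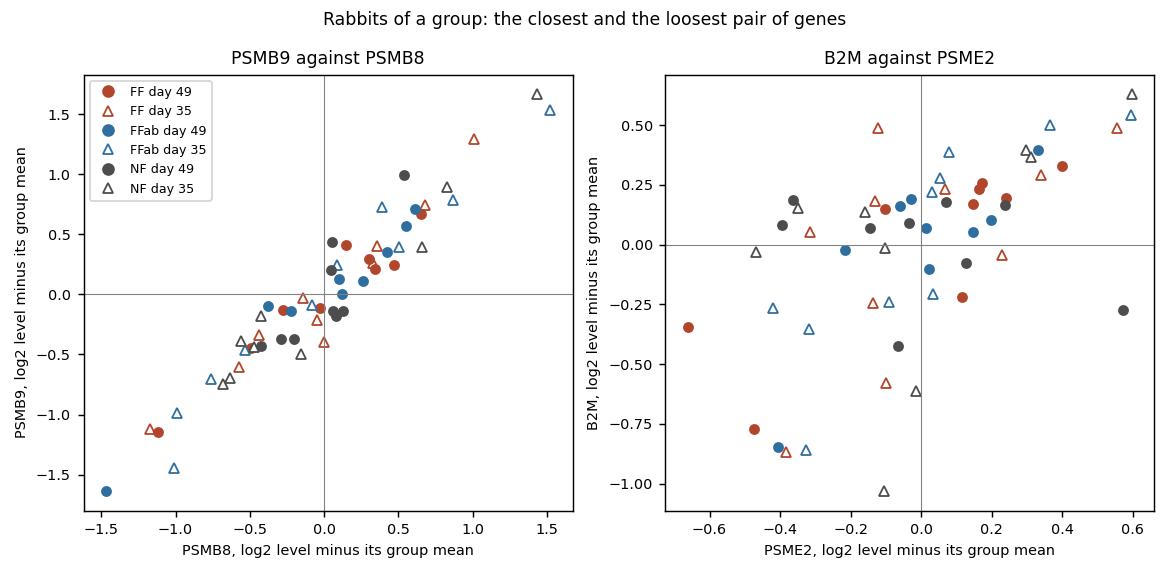
Level of PSMB9 against PSMB8 (left) and of B2M against PSME2 (right) in 56 rabbits, each on the log2 scale minus the mean of its group, with filled circles for day 49 and open triangles for day 35. The left panel has r = 0.96 and a narrow band of points, and the right panel r = 0.57 and a wider one.

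The mean of the 8 genes, each set against its own mean over all rabbits, shows where single rabbits stood. In FF rabbits of day 49 it was -0.38, 0.53 and 0.94 (lowest, median and highest), against -1.35, -0.49 and 0.29 in those of day 35. In FFab rabbits it was -0.78, 0.20 and 0.68 at day 49, against -0.90, -0.22 and 0.77 at day 35, and in NF rabbits 0.05, 0.30 and 0.82 at day 49, against -0.63, -0.37 and 0.91 at day 35. Of 10 FF rabbits of day 35, 7 had 0 of 8 genes above their own mean, and 5 of 10 FFab and 4 of 9 NF rabbits of day 35 did so. In FF, 1 rabbit of day 35 had all 8 above and 1 of day 49 had 0 above.

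The 5 genes outside the set whose rabbit-to-rabbit pattern was most like the mean of the 8, over 56 rabbits and among 7967 genes, were LOC100346985 (r = 0.90), PARP14 (0.88), UBE2L6 (0.88), LOC100349005 (0.87) and GBP1 (0.87). UBE2L6 attaches the ubiquitin-like protein ISG15 to its targets, and GBP1 is an interferon-induced GTPase. Both took these names from the paper's lists of genes that changed with age in these data. Their rise in FF rabbits is thus no separate evidence. Without the 7 arrays low in FABP6 these r were between 0.85 and 0.89. All 5 rose in FF rabbits, from 1.17 ± 0.35 for UBE2L6 (adjusted p = 0.0269) to 2.44 ± 0.51 for GBP1 (adjusted p = 0.00172), and 0 of 5 passed in FFab or NF rabbits, where GBP1 stood at 0.73 and 1.06. The same measure gave PSMB8 an r of 0.96 with the mean of the other 7 members and B2M 0.73.

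Other probes named as class I heavy chains were looked up after the values of RLA-A2 had been seen. In FF rabbits LOC100338822, an MHC class I antigen-like gene, rose (1.25 ± 0.34, adjusted p = 0.0143), as did RLA-A3 (0.77 ± 0.25, adjusted p = 0.0397) and LOC100328967, named RLA class I 19-1 (0.59 ± 0.13, adjusted p = 0.00281). LOC100349757, named as like the pig class I gene SLA-11, stood at 0.01 ± 0.07 (adjusted p = 0.947). In FFab and NF rabbits 0 of these 4 passed. Near copies of a heavy chain can share RNA on a probe, so the 3 rises and that of RLA-A2 may not be separate.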

How the data were processed

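RNA of the ileum was hybridized to 57 rabbit arrays with 1 dye. The authors deposited, for each array, the scanner's output with the processed signal of every spot as intensity (62976 spots, 1319 controls, 42089 probes), as well as normalized log2 values of 33284 probes. The processed signal is background-subtracted by Agilent Feature Extraction (10.10.1.1 in the file headers, 10.7.3.1 in the submitters' processing notes). The flags of each spot for background, saturation and outliers were deposited beside it. Spots of a probe were averaged without outliers, set to log2 and quantile normalized. This scale has no absolute unit, and levels of different probes are not compared.

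Dim probes were dropped unless, in some group, 75% or more of arrays had 50% or more of the probe's spots flagged as above background, and 31722 remained. Probes were named by accession (11466), gene identifier (8923), the paper's lists of genes that changed with age (151) or the files (63). Another 21486 without a single gene were left out. Where a gene had several probes, that of median level was read, which gave 7975 genes. The NF rabbit 78 of day 35, which the study left out, was left out here. limma fitted 1 mean per group over 56 arrays, with 50 residual degrees of freedom, and p-values were adjusted by Benjamini-Hochberg over all genes in each of 13 contrasts. Calls needed both an adjusted p below 0.05 and a log2 change over 0.5 in size. The rabbits' numbers name samples only. Errors of changes are standard errors from that fit, and intervals are 95%. Correlations used 100000 permutations within groups. The number of arrays limits the precision.

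The 10 members, the other lists, the contrasts and the alternatives were chosen with earlier results of these data known. Named are the members, up to 4 genes of a list that passed in FF, others of a list as examples after their values were seen, and the 5 genes most correlated with the members' mean. Alternatives were the deposited log2 values, normexp background correction (offset 50), scaling to the 75th percentile, other filters and probes, slide as a block, all 57 arrays, only the groups compared, no minimum change and each rabbit left out. Leaving out arrays low in FABP6 or SLC10A2 was added after the data were seen. A withheld item is not reported here. The steps were tested on simulated data. Software: R 4.3.3, limma 3.58.1, statmod 1.5.0, data.table (version 1.17.8), Python 3.11.15, numpy 2.4.6, scipy 1.17.1 and matplotlib 3.10.9.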

Additional observations from a re-analysis of the deposited data

Results flagged for a closer look

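A rabbit far from its group was found in 3 of 48 sets of gene and group, and about 1 in 20 such sets would be expected to hold such a rabbit by chance. All 3 belong to the same FFab rabbit of day 49. Its PSMB9 level was 13.92 (13.9243), against 15.42 for the next lowest of the 9 rabbits, its PSMB8 level was 11.01 (11.0080), against 12.10 for the next, and its B2M level was 17.39 (17.3949), against 18.14 for the next. The genes are read from the same array, so the 3 values are not separate.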

How the results depend on the processing

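The 8 calls in FF rabbits held under the alternatives tried, apart from B2M, which missed the threshold with scaling to the 75th percentile (adjusted p = 0.0971, the largest), all 57 arrays, only the groups compared and the probe of highest level (log2 change 0.50, the smallest). With each rabbit left out, FF rabbits gave 7 to 8 calls and all treatments together 4 to 4, and the other comparisons stayed at 0. Without the minimum change, 8 genes passed over all treatments in place of 4. The following uncalled differences changed sign. The difference in RLA-A2's age change, FFab minus NF, became -0.028 under the 75th percentile and -0.10 with all 57 arrays. FFab against NF at day 35, with all 57 arrays, became 0.090 for PSMB8, 0.055 for PSMB9, 0.076 for PSME1 and 0.053 for PSME2, and for PSME2 0.00308 with the probe of highest level. B2M there became -0.031 without arrays low in FABP6 and -0.022 without those low in SLC10A2. B2M at day 49, FF against NF, became 0.00636 with normexp, and ERAP1 at day 49, FFab against NF, -0.012 without either set of low arrays. The cause was not tested.

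With single rabbits left out, signs also changed for uncalled values near 0. For the age change FFab minus NF the ranges were -0.23 to 0.13 for PSMB8, -0.35 to 0.061 for PSMB9, -0.32 to 0.024 for TAP1, -0.23 to 0.000479 for ERAP1 and -0.11 to 0.12 for RLA-A2. For FFab against NF at day 35 they were -0.10 to 0.052 for PSME1, -0.11 to 0.026 for PSME2 and -0.081 to 0.14 for B2M. For FF against NF at day 49 they were -0.000922 to 0.22 for PSMB8, -0.033 to 0.19 for PSMB9, -0.017 to 0.088 for PSME1, -0.026 to 0.26 for TAP1 and -0.085 to 0.065 for B2M. For B2M at day 49 they were -0.15 to 0.00946 for FFab against NF and -0.16 to 0.041 for FFab against FF. Some uncalled values kept their sign but moved by over 1.5 times. The age change FF minus NF ranged over the alternatives from 0.49 to 0.79 for PSMB8, 0.43 to 0.76 for PSMB9 and 0.013 to 0.20 for B2M, and FF against NF at day 35 from -0.72 to -0.41, -0.71 to -0.38 and -0.21 to -0.045 for the same genes, nearest to 0 in each with all 57 arrays. With single rabbits left out, B2M ranged from 0.024 to 0.25 and from -0.28 to -0.055 in these comparisons.

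No paired analysis was possible because the rabbit numbers of the groups do not overlap. Slide correlated at 0.16 and changed no call as a block. The median age change of all genes in FF rabbits was -0.03 with scaling to the 75th percentile and -0.01 with quantile normalization. Litter, sex and RNA quality entered no fit, and TAP2 and NLRC5 were not analysed here.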

Other observations

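NF rabbit 78 of day 35, which the study left out, had a PSMB8 level of 9.22 when all 57 arrays were normalized together, against 11.49 to 13.61 in the 9 other NF rabbits of day 35. It lay below the lowest of these in 7 of the 8 class I genes, with TAP1 at 8.14 against 9.84 to 12.03 and RLA-A2 at 16.59 against 17.08 to 18.60. ERAP1, at 7.49, was within their range of 7.18 to 8.99. The same array was low in the ileal bile acid genes, with FABP6 at 9.32 and SLC10A2 at 2.57, whereas the 7 arrays of the 56 that were low in FABP6 lay in the upper part of their groups for the class I genes.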
